A study of Mus musculus with 6 samples.

Results

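Keratins and markers of the bile duct epithelium were followed in mouse liver through 8 genes chosen by symbol: the keratins Krt8, Krt18, Krt23, Krt7 and Krt19, the adhesion protein gene Epcam, the transcription factor gene Sox9 and the osteopontin gene Spp1. All 8 were found among the 34352 genes that carry a symbol and log2 values in one deposited table, and among the 55335 genes of a second table in FPKM (fragments by gene length and library size). The 3 cadmium libraries come from wild-type C57BL/6 mice that were gavaged for 90 days with 20 mg/kg/day of CdCl2, cadmium chloride. The 3 control libraries come from mice of the same strain and genotype whose gavage held 0 mg/kg/day. The mice are described as male and 6 to 8 weeks old at housing, with 6 per group, and the labels do not say which mice went into which library. P-values therefore measure the spread between these libraries, which may be technical.

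The libraries hold fragmented liver RNA that an antibody against m6A, a methyl mark on RNA, left unbound, per the labels' protocol, which calls this fraction Input. Whether it instead holds RNA from before the pull-down was not settled from the files. If unbound, a difference in transcript level cannot be told apart here from a difference in the bound share. The recovered reads per library ran from 42115960 to 68587128. Each library also carries a batch number from 1 to 3, and each batch holds 1 cadmium and 1 control library. Alb, the albumin gene of hepatocytes, set 1 library of each group apart: cadmium replicate 2 had 10130 FPKM and control replicate 1 had 10244 FPKM, while the other 4 libraries had 17184 to 17899 FPKM. In all 6 libraries Xist, made from the silenced X chromosome of female cells, stood at 19.7 to 35.5 FPKM, while the Y-linked genes Kdm5d and Uty had at most 1 read per library, which goes against the male label in both groups alike.

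Keratins are intermediate filament proteins that assemble from a type I and a type II chain. Hepatocytes build their filaments from KRT8, of type II, and KRT18, of type I, while the epithelium of bile ducts adds KRT7 and KRT19. KRT8 and KRT18 are known to increase in stressed liver, where misfolded keratin can gather in Mallory-Denk bodies. EPCAM, SOX9 and osteopontin mark bile duct cells, and the duct-like cells that appear in injured liver, known as the ductular reaction. Of these genes Krt8 and Krt18 lie near each other on chromosome 15, as does Krt7, whereas Krt19, Krt23 and Sox9 lie on chromosome 11.

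On the GRCm38 build (GENCODE M21), Krt18 spans 102028180 to 102032027 and Krt8 spans 101996698 to 102004482 of chromosome 15. Krt7 spans 101411043 to 101430313 of the same chromosome. On chromosome 11, Krt23 spans 99477974 to 99493137, Krt19 spans 100140810 to 100148665 and Sox9 spans 112782224 to 112787760. Epcam spans 87635979 to 87651129 of chromosome 17, and Spp1 spans 104435118 to 104441050 of chromosome 5. Annotated genes overlap Krt7, Krt8 and Spp1, with at most 19 reads in any library. How reads within an overlap were counted is not given, so these counts do not bound the reads that Krt7, Krt8 and Spp1 lost or gained there.

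Promoters of the 3 keratins that the results below turn on are shown as the 250 bases before the RefSeq start (GRCm38.p6), written 5′ to 3′ on the gene's strand. Krt18 lies at chr15:102027966-102028215 on the plus strand, Krt8 at chr15:102004343-102004592 on the minus strand and Krt23 at chr11:99493121-99493370 on the minus strand. Capitals mark matches to the motifs named after the sequences.
Krt18: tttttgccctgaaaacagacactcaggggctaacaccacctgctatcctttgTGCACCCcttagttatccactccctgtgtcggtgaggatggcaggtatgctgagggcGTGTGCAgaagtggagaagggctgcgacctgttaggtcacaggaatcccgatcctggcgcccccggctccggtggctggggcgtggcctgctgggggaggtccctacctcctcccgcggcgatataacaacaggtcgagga
Krt8: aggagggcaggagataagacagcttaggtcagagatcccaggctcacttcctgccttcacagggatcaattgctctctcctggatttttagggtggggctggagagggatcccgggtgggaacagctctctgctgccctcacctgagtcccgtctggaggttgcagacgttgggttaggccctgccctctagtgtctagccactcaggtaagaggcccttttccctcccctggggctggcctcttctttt
Krt23: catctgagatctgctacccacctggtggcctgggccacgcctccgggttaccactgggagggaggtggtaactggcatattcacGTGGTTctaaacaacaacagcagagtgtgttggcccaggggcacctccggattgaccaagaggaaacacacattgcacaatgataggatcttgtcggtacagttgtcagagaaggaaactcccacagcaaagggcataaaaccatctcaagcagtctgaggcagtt

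Both strands were searched for the letters of 6 motifs. The core that the metal-responsive factor MTF1 binds was taken as TGCACNC or TGCGCNC. The Krt18 window holds 2 metal response cores, at 198 bases before the start on the plus strand and at 141 bases before it on the minus strand. At least 1 metal response core is found in 21.4% of 32851 mouse promoter windows of this length, so a match of this kind is common. The share of windows with 2 was not computed. The Krt7 window also holds 1, at 36 bases before the start on the plus strand. The Krt23 window holds 1 RUNX match, 166 bases before the start on the minus strand, AACCAC, which is found in 10.8% of windows. The Krt8 window holds no match. The TATA box letters TATAAA are in 12.4% of windows and the GC box letters GGGCGG in 32.7%. The AP-1 site letters TGANTCA are in 6.75% of windows. The TEAD site letters GGAATG are in 12.6% of windows. These matches describe the letters in each window only, and RefSeq promoters were matched for 6 of the 8 genes.

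Krt18 was higher in every cadmium library than in any control library, 1.77-fold by the ratio of means, and it was the one gene of the 8 called in the comparison of cadmium with control. Krt8, whose protein pairs with that of Krt18, did not pass, and its mean FPKM ratio was 1.19. Krt23 had lower values in cadmium, at a ratio of 0.462, and its call depended on the fit. The duct markers Sox9, Spp1, Krt19 and Epcam had mean ratios of 1.80 to 2.33, and none of them was called. Their values were high in cadmium replicates 1 and 3 and low in cadmium replicate 2. Krt7, also a keratin of duct cells, had a mean ratio of 0.855, on 7 to 50 reads per library.

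Calls came from a pair of fits across all genes, each at an adjusted p of 0.05. The FPKM fit used limma on log2(FPKM + 1) and covered genes with at least 1 FPKM in at least 3 libraries. It called 779 of 9908 genes higher in cadmium, or 7.86%, and 180 lower, or 1.82%. Of the 8 genes 3 passed its filter, Krt8, Krt18 and Spp1, each with at least 1 FPKM in all 6 libraries, and 1 of these 3 was called higher, which was also the 1 with an unadjusted p under 0.05, against 27% of all genes. The read fit used limma's voom method on reads recovered from the deposited log2 table and covered genes with a mean of at least 10 reads, which all 8 have. It called 464 of 18411 genes higher, or 2.52%, and 407 lower, or 2.21%. Of the 8 genes it called 1 higher and 0 lower, and at an unadjusted p of 0.05 it counted 1 higher and 1 lower, against 21.7% of all genes in either direction. Over all genes tested, the log2 fold change had a median of 0.090 in the FPKM fit and 0.018 in the read fit. The split of calls depended on scaling: the FPKM fit called 347 higher and 298 lower after quantile normalization and 381 higher and 493 lower on the deposited log2 values, and the read fit 1407 higher and 216 lower with total reads as library sizes. Krt18 was called higher under each of these scalings.

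Krt18 stood at 68.6, 57.3 and 75.2 FPKM in cadmium replicates 1 to 3, against 35.0, 42.4 and 36.4 FPKM in control replicates 1 to 3. The groups did not overlap: the lowest cadmium library lies above the highest control library. The means were 67.0 ± 9.09 FPKM in cadmium and 37.9 ± 3.95 FPKM in control (SD, n = 3 each), on 5127 to 8595 reads in cadmium and 2748 to 3725 reads in control. Krt18 rose by 0.80 ± 0.15 (SE) on the log2(FPKM + 1) scale, with an adjusted p of 0.0212 (limma), and by 0.64 ± 0.13 in the read fit, with an adjusted p of 0.0260. Among the 9908 genes of the FPKM fit its change ranked 217 from the highest, and among the 18411 genes of the read fit it ranked 2374. The authors' deposited table gives it a log2 fold change of 0.64 and an FDR of 7.38e-05.

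With the batch number as a block, Krt18 had the same FPKM estimate and an adjusted p of 0.0705 (limma), and 0.0598 in the read fit, so the call ended, while its ratio was above 0 in all 3 batches. The block fits called 1.86% of genes higher in FPKM, and 1.61% higher and 1.78% lower in reads. Without cadmium replicate 1, cadmium replicate 3 or control replicate 3 its adjusted p in the FPKM fit was 0.0685, 0.0956 and 0.0676, with log2 fold changes of 0.78, 0.71 and 0.77.

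Krt8 stood at 69.0, 52.8 and 69.9 FPKM in cadmium replicates 1 to 3, against 35.9, 64.5 and 60.2 FPKM in control replicates 1 to 3. Its groups overlapped, since cadmium replicate 2 lies below control replicates 2 and 3, and control replicate 1 alone was low. The means were 63.9 ± 9.59 FPKM in cadmium and 53.5 ± 15.4 FPKM in control (SD, n = 3 each). The log2 fold change was 0.28 ± 0.24 (SE) in the FPKM fit, with an adjusted p of 0.495 (limma), and 0.11 ± 0.20 in the read fit, with an adjusted p of 0.808. A copy of Krt8 on chromosome 7, Krt8-ps, had 252 to 434 reads per library, and its reads came to 3.82% to 3.99% of those of Krt8 in cadmium and 4.46% to 5.06% in control. Reads of so similar a copy may be split between both genes, which makes the Krt8 level uncertain. How reads that match both genes were counted is not given, so this share does not bound that uncertainty.

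**Figure D1:**
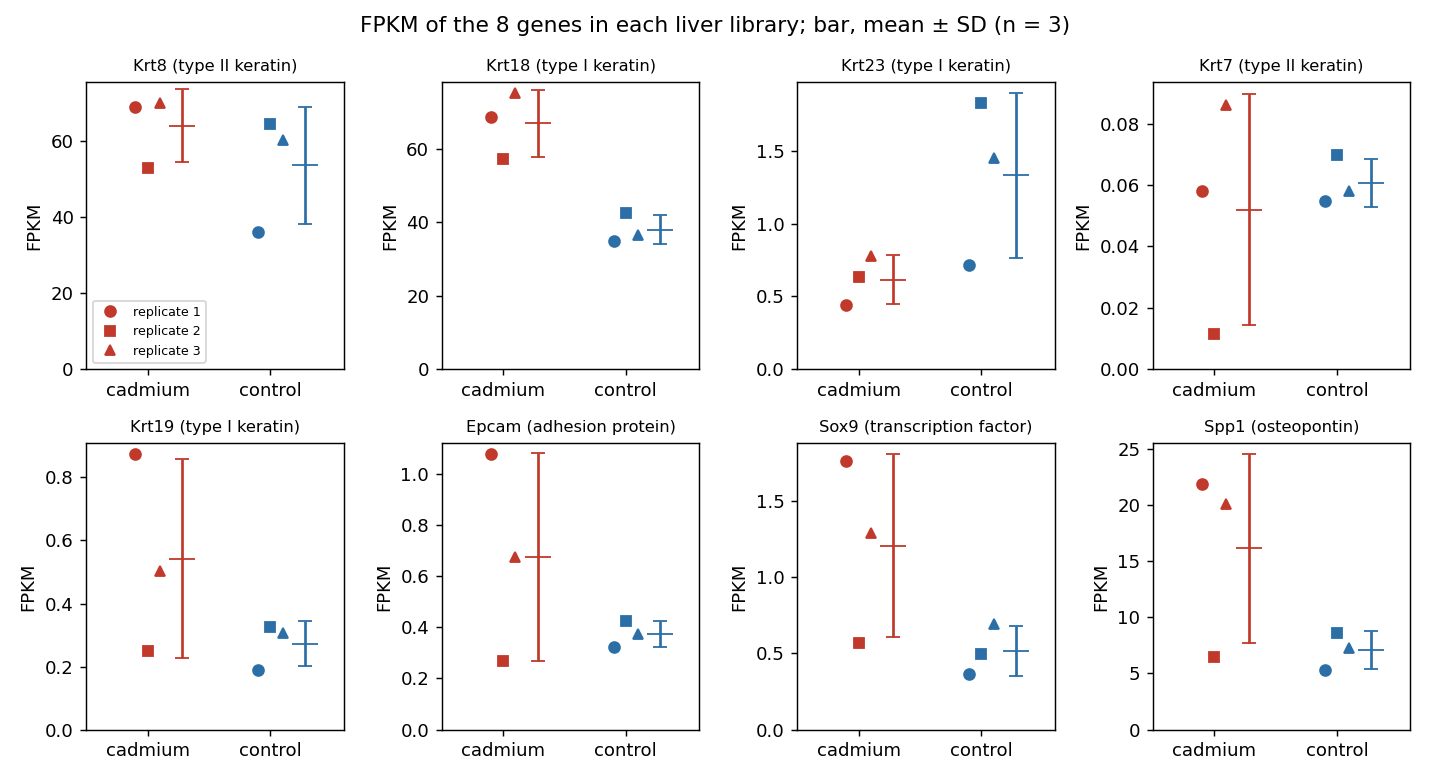
FPKM of each of the 8 genes (vertical axes, from 0) in the cadmium libraries (left) and control libraries (right), with symbols for replicates 1 to 3 and bars for the mean and SD of 3 libraries. Krt18 is the one panel in which no control library reaches the lowest cadmium library, at 57.3 FPKM, while Sox9, Spp1, Krt19 and Epcam have cadmium replicate 2 within the control range or, for Epcam, below it.

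The balance of the paired chains was measured as the ratio of Krt8 to Krt18 FPKM within a library, a value that library scaling cannot move. The ratio was 1.00, 0.922 and 0.929 in cadmium replicates 1 to 3, against 1.03, 1.52 and 1.65 in control replicates 1 to 3. Every cadmium library lies below every control library, although control replicate 1 is close to the cadmium values. On the log2 scale the means were -0.072 ± 0.069 in cadmium and 0.46 ± 0.37 in control (SD, n = 3 each), a difference of -0.53. The exact permutation test, two-sided, gave p = 0.1, the smallest that 3 against 3 libraries allow. Krt8 FPKM overlapped between groups and Krt18 FPKM did not, so the separation of this ratio is not independent of that of Krt18. Leaving out 1 library at a time gave differences of -0.74 to -0.39.

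**Figure D2:**
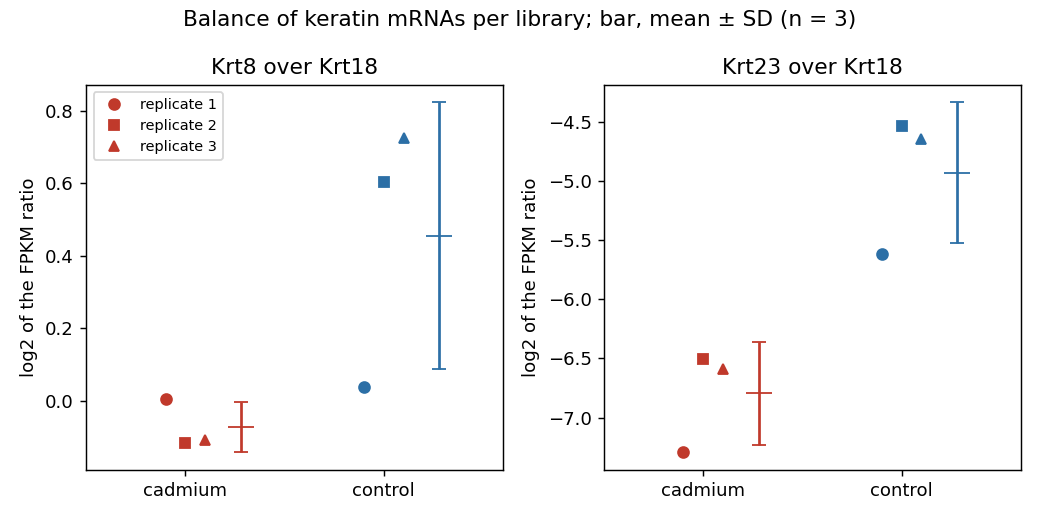
The log2 ratio of Krt8 to Krt18 FPKM (left panel) and of Krt23 to Krt18 FPKM (right panel) in the cadmium libraries (left in each panel) and control libraries (right), with symbols for replicates 1 to 3 and bars for the mean and SD of 3 libraries. Cadmium values lie below control values in both panels, and control replicate 1, at 0.038, is the control library nearest to the cadmium libraries in the Krt8 panel.

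Krt23, a type I keratin that is scarce in healthy liver, stood at 0.438, 0.631 and 0.780 FPKM in cadmium replicates 1 to 3, against 0.713, 1.83 and 1.46 FPKM in control replicates 1 to 3. Control replicate 1 lies within the cadmium range, and control replicates 2 and 3 lie above all cadmium libraries. The means were 0.616 ± 0.171 FPKM in cadmium and 1.33 ± 0.569 FPKM in control (SD, n = 3 each), on 36 to 97 reads in cadmium and 80 to 175 reads in control. In the read fit its log2 fold change was -1.16 ± 0.37 (SE), with an adjusted p of 0.105 (limma). With the batch number as a block the estimate was -1.27 and the adjusted p 0.0458, a call. Without control replicate 1 they were -1.54 and 0.0180, the only call among the 6 fits with 1 library left out. Without cadmium replicate 1 they were -0.97 and 0.244. The authors' deposited table gives Krt23 a log2 fold change of -1.21 and an FDR of 0.00429.

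The difference of Krt23 had the opposite sign to that of Krt18, also a type I keratin. The log2 ratio of Krt23 to Krt18 averaged -6.80 ± 0.43 in cadmium and -4.93 ± 0.59 in control (SD, n = 3 each), and the groups did not overlap (exact permutation p = 0.1, two-sided). The log2 ratios of the duct markers to Krt18 overlapped between groups, with differences of 0.029 for Krt19, -0.18 for Epcam, 0.31 for Sox9 and 0.21 for Spp1. Exact permutation p-values, two-sided, were 1 for Krt19, 0.7 for Epcam and Sox9 and 0.8 for Spp1. For Krt7 the groups did not overlap: its log2 ratio to Krt18 averaged -10.75 ± 1.34 in cadmium and -9.29 ± 0.036 in control (SD, n = 3 each). The difference was -1.46 (exact permutation p = 0.1, two-sided) on 7 to 50 reads of Krt7 per library, and -0.70 without cadmium replicate 2. In FPKM the groups of Krt7 and of Krt23 overlapped, and those of Krt18 did not. A ratio to Krt18 can thus separate the groups through Krt18 alone. The share of separated ratios over all genes was not computed.

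Sox9, a transcription factor of bile duct precursors that is also active in stellate cells making matrix, stood at 1.76, 0.570 and 1.29 FPKM in cadmium replicates 1 to 3, against 0.362, 0.497 and 0.691 FPKM in control replicates 1 to 3. Cadmium replicates 1 and 3 lie above all controls, and cadmium replicate 2 lies within the control range. The means were 1.21 ± 0.598 FPKM in cadmium and 0.517 ± 0.165 FPKM in control (SD, n = 3 each). The read fit gave a log2 fold change of 0.89 ± 0.49 (SE) and an adjusted p of 0.350 (limma). Without cadmium replicate 2 these were 1.39 and 0.0178, the only call among the 6 fits with 1 library left out. Without cadmium replicate 1 they were 0.62 and 0.488, and without control replicate 1 they were 0.69 and 0.581. The authors' deposited table gives 0.93 and an FDR of 0.0238.

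Spp1 encodes osteopontin, a secreted protein made by bile duct cells, and by macrophages and stellate cells of injured liver. Its values were 21.8, 6.45 and 20.0 FPKM in cadmium replicates 1 to 3, against 5.29, 8.64 and 7.25 FPKM in control replicates 1 to 3. Again cadmium replicates 1 and 3 were high, and cadmium replicate 2 lay between control replicates 1 and 3. The means were 16.1 ± 8.41 FPKM in cadmium and 7.06 ± 1.68 FPKM in control (SD, n = 3 each). The log2 fold change was 0.95 ± 0.47 (SE) in the FPKM fit, with an adjusted p of 0.267 (limma), and 0.84 ± 0.56 in the read fit, with an adjusted p of 0.462. Without cadmium replicate 2 the FPKM fit gave 1.47 with an adjusted p of 0.0190, and the read fit 1.41 with 0.00398. No other omission of 1 library gave a call in either fit. Without cadmium replicate 1 the FPKM fit gave 0.66 with 0.501, and the read fit 0.55 with 0.695.

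Krt19, the type I keratin used most often to mark bile ducts, stood at 0.874, 0.248 and 0.504 FPKM in cadmium replicates 1 to 3, against 0.190, 0.324 and 0.305 FPKM in control replicates 1 to 3. The means were 0.542 ± 0.315 FPKM in cadmium and 0.273 ± 0.0725 FPKM in control (SD, n = 3 each), and the groups overlapped. These levels rest on 26 to 85 reads per library. The read fit gave a log2 fold change of 0.57 ± 0.47 (SE) and an adjusted p of 0.533 (limma). This estimate came to 0.22 without cadmium replicate 1, 0.36 without control replicate 1 and 1.06 without cadmium replicate 2.

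Epcam, which encodes a cell surface adhesion protein of duct and progenitor cells, stood at 1.08, 0.268 and 0.675 FPKM in cadmium replicates 1 to 3, against 0.324, 0.426 and 0.374 FPKM in control replicates 1 to 3. Cadmium replicate 1 was the highest library and cadmium replicate 2 the lowest. The means were 0.674 ± 0.405 FPKM in cadmium and 0.375 ± 0.0510 FPKM in control (SD, n = 3 each). The read fit gave a log2 fold change of 0.35 ± 0.49 (SE) and an adjusted p of 0.734 (limma). This estimate came to -0.0018 without cadmium replicate 1 and to 0.94 without cadmium replicate 2.

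Krt7, the type II keratin of duct cells, was near the floor of detection at 0.0582, 0.0116 and 0.0862 FPKM in cadmium replicates 1 to 3, against 0.0547, 0.0697 and 0.0580 FPKM in control replicates 1 to 3. The groups overlapped, and the lowest library was again cadmium replicate 2, with 7 reads. The read fit gave a log2 fold change of -0.87 ± 0.66 (SE) and an adjusted p of 0.486 (limma), and 0.083 without cadmium replicate 2. These values rest on 7 to 50 reads per library.

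In FPKM, 1 of the 8 genes had groups that did not overlap, Krt18, against 32% of the 18411 genes of the read fit. In the deposited log2 values, which are scaled by size factors rather than by the library total, Krt18 and Krt23 did, or 2 of 8, against 27.8% of those genes. Neither share stands above that of all genes. Exact permutation tests on FPKM, two-sided, gave p = 0.1 for Krt18, 0.2 for Krt23 and Sox9, 0.3 for Krt19 and Spp1, 0.4 for Epcam, 0.5 for Krt8 and 0.9 for Krt7, where 0.1 is the smallest that 3 against 3 libraries allow. In this bulk tissue, fewer cells of a type cannot be told apart from less RNA per cell.

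Within batches, the log2 ratio of cadmium to control FPKM was 0.97, 0.43 and 1.05 for Krt18 in batches 1 to 3, and -0.70, -1.54 and -0.90 for Krt23. These genes kept 1 sign in all batches. Sox9 did so too, at 2.28, 0.20 and 0.90. Batch 2 had the opposite sign to the others for Spp1, at 2.05, -0.42 and 1.47, and for Krt19, at 2.20, -0.38 and 0.72. The same held for Epcam, at 1.74, -0.67 and 0.85. Krt8 gave 0.94, -0.29 and 0.21, and Krt7 gave 0.089, -2.59 and 0.57. These ratios depend on scaling. In the deposited log2 values the batch 1 difference was smaller for Krt18, at 0.69, and for Sox9, at 1.98. There Sox9 differed by only 0.057 in batch 2, and Krt7 turned to -0.18 in batch 1.

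**Figure D3:**
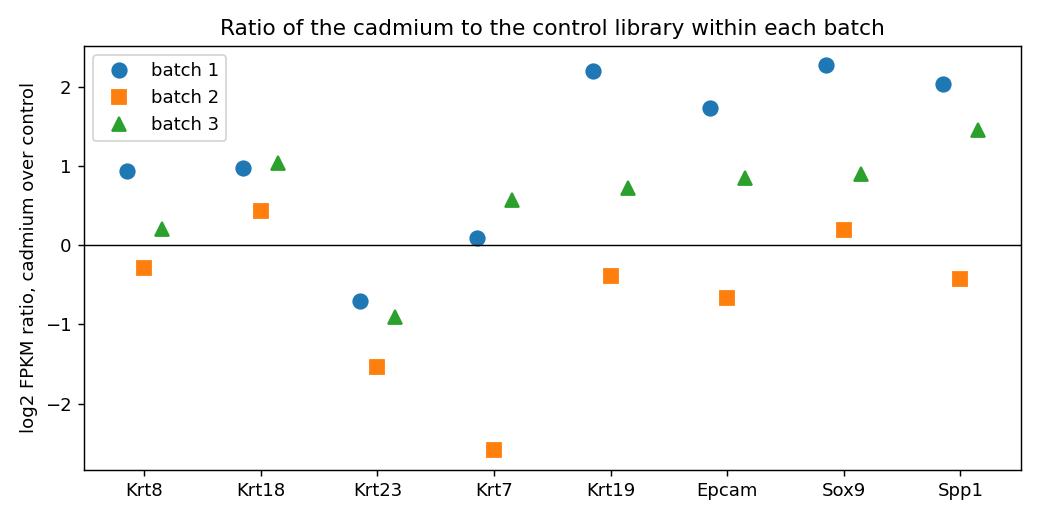
Log2 ratio of the cadmium to the control library of the same batch, in FPKM, for each of the 8 genes (horizontal axis), with symbols for batches 1 to 3 and a line at 0. All 3 ratios of Krt18 and Sox9 lie above 0 and all 3 of Krt23 below it, while batch 2 lies below 0 for Krt8, Krt7, Krt19, Epcam and Spp1.

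Levels were compared between genes in FPKM, which are per gene length. In cadmium Krt18 and Krt8 led, at means of 67.0 and 63.9 FPKM, followed by Spp1 at 16.1 FPKM. Sox9, Epcam, Krt23 and Krt19 came next at 1.21, 0.674, 0.616 and 0.542 FPKM, and each of these differed from its neighbour in that order by less than the larger SD of the pair. In control Krt8 led at 53.5 FPKM, before Krt18 at 37.9 FPKM and Spp1 at 7.06 FPKM. Krt23 came before Sox9, Epcam and Krt19 in control, at 1.33, 0.517, 0.375 and 0.273 FPKM, where Sox9 and Epcam differed by less than their larger SD. Krt7 was last in both groups, at 0.0520 ± 0.0377 FPKM in cadmium and 0.0608 ± 0.00788 FPKM in control (SD, n = 3 each). Krt8 and Krt18 are thus abundant in these libraries, where Alb is too, while Krt7, Krt19, Epcam and Sox9 are scarce but present in all 6 libraries.

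Of the other keratins, 13 have log2 values, and 2 of them reach a mean of 10 reads. Krt10, a keratin of the epidermis, averaged 0.379 ± 0.0890 FPKM in cadmium and 0.268 ± 0.121 FPKM in control (SD, n = 3 each), with a read fit log2 fold change of 0.31 and an adjusted p of 0.686 (limma). Krt80 averaged 0.0686 ± 0.0188 FPKM in cadmium and 0.0380 ± 0.0197 FPKM in control, with 0.71 and an adjusted p of 0.404. With 1 library left out these estimates ran from 0.089 (without control replicate 3) to 0.71 (without control replicate 1) for Krt10, and from 0.28 (without control replicate 1) to 1.01 (without control replicate 2) for Krt80. The remaining 11 keratins had at most 10 reads in any library.

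Of 23 further markers of bile duct epithelium, 18 were measured in the read fit, with 1 called higher, 1 called lower and a median log2 fold change of 0.54 against 0.018 for all genes. Pkhd1, which encodes the fibrocystin of cilia, rose to 1.83 ± 0.284 FPKM in cadmium, against 0.902 ± 0.0156 FPKM in control (SD, n = 3 each; FPKM fit log2 fold change 0.57, adjusted p 0.0140 by limma, and 0.0516 with the block). Its control libraries all lay under 1 FPKM, so Pkhd1 passed the filter of the FPKM fit only through the cadmium libraries. Pkhd1 was also the marker called higher in the read fit, whose filter is on the mean of all libraries. Atp1b1, a subunit of the sodium pump, fell to 14.6 ± 0.293 FPKM in cadmium, against 21.2 ± 2.76 FPKM in control (log2 fold change -0.50, adjusted p 0.0423, and 0.0932 with the block). The call of Pkhd1 was lost without cadmium replicate 3, at an adjusted p of 0.0669, and that of Atp1b1 was lost in 5 of the 6 fits with 1 library left out, at up to 0.160.

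Cadmium replicate 1 was the highest library for 9 of the 18 further duct markers, or 50%, and for 4 of the 8 genes, against 17.9% of 18411 genes. Cadmium replicate 2 was the lowest cadmium library for 13 of the 18, or 72.2%, and for 7 of the 8, against 33% of all genes. The summed FPKM of the further duct markers did not follow that order, at 249.8, 307.3 and 309.7 FPKM in cadmium replicates 1 to 3 and 222.4, 286.6 and 246.2 FPKM in control replicates 1 to 3. Most of that sum is Clu, named after its values were seen, at 159.1, 204.7 and 211.4 FPKM in cadmium replicates 1 to 3 and 149.2, 194.5 and 160.8 FPKM in control replicates 1 to 3. Among the cadmium libraries, the summed FPKM of hepatocyte markers was lowest in replicate 2, at 16203 FPKM, against 23781 and 24852 FPKM in replicates 1 and 3. In control it was 15679, 23118 and 23646 FPKM in replicates 1 to 3. Markers of other epithelia that could enter a liver sample were summed as well. Those of gallbladder and gut came to 12.8 to 17.3 FPKM in cadmium and 12.8 to 19.3 FPKM in control, and those of mesothelium to at most 1.04 FPKM in cadmium, reached in replicate 1, and at most 0.535 FPKM in control. The read fit called 0 of 3 gallbladder and gut markers and 0 of 5 mesothelial markers, with 0 and 1 of them past an unadjusted p of 0.05 (limma), and the FPKM fit called 0 of 2 gallbladder and gut markers. The part of these differences between libraries in the duct marker values was not tested.

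**Figure D4:**
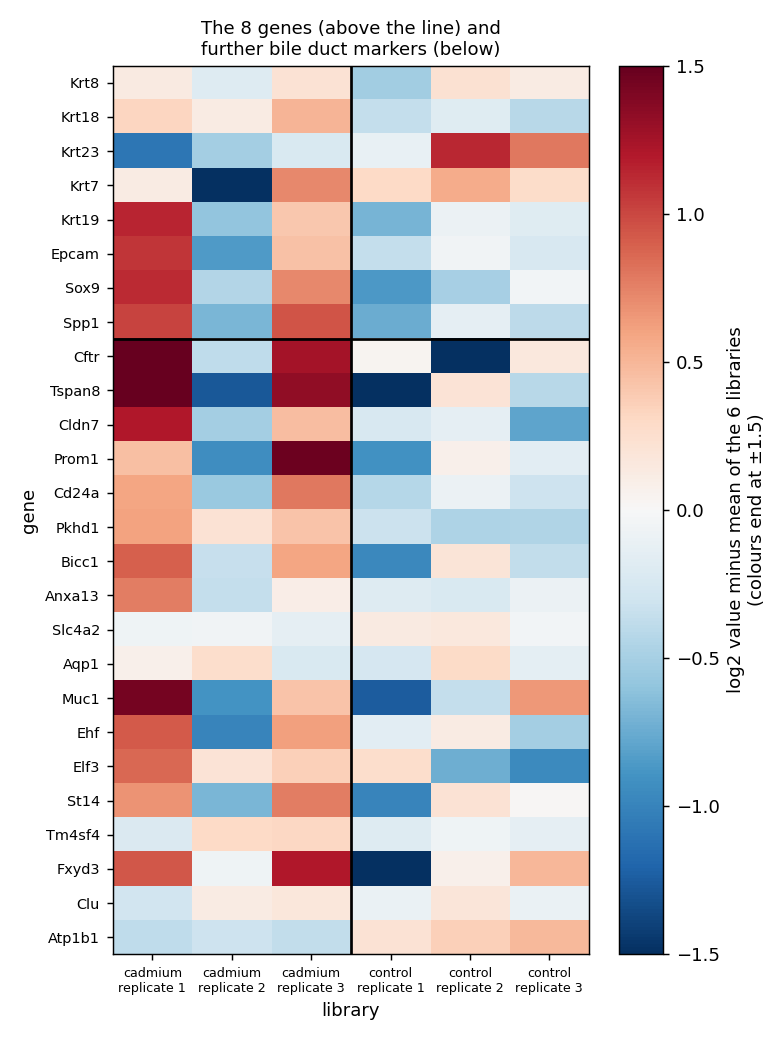
Deposited log2 value of each gene minus its mean over the 6 libraries (colour, ending at ±1.5), for the 8 genes above the horizontal line and 18 further bile duct markers below it, with cadmium libraries in the left columns and control libraries in the right ones. Cadmium replicate 2 is the lowest cadmium column for 13 of the 18 further markers and for 7 of the 8 genes, and Atp1b1 is the row called lower in cadmium.

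Among Notch pathway genes and other regulators of biliary fate, 9 were measured in the FPKM fit, with 2 called higher and 0 lower (5 higher and 1 lower at an unadjusted p of 0.05). Notch1, a receptor of that pathway, rose to 3.75 ± 0.264 FPKM in cadmium, against 2.33 ± 0.243 FPKM in control (SD, n = 3 each; log2 fold change 0.51, adjusted p 0.0186 by limma, and 0.0595 with the block). Tgfb1 was the other called gene. The read fit measured 15 and called Heyl, Sox4 and Notch1 higher, the first 2 of which are named after their values were seen. Of 10 target genes of YAP, a factor of duct cell fate, 1 was called higher in the FPKM fit, a share near the 7.86% of all genes. It was the receptor kinase gene Axl, at 3.79, 4.58 and 4.93 FPKM in cadmium replicates 1 to 3 and 1.87, 2.81 and 2.06 FPKM in control replicates 1 to 3 (log2 fold change 0.75, adjusted p 0.0198). The call of Notch1 was lost without cadmium replicate 1, cadmium replicate 3 or control replicate 3 (adjusted p up to 0.0670), and that of Axl without cadmium replicate 2, cadmium replicate 3 or control replicate 3 (up to 0.0839). Tgfb1 stayed called in 1 of the 6 fits with 1 library left out.

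Genes of epithelial adhesion and tight junctions, which join neighbouring epithelial cells and seal the bile canaliculus, formed a further list. Of its 15 genes measured in the FPKM fit 7 were called higher and 0 lower (9 higher and 0 lower at an unadjusted p of 0.05), with a median log2 fold change of 0.40 against 0.090 for all genes. Cldn1, a claudin of the tight junction, rose to 12.4 ± 2.28 FPKM in cadmium, against 3.54 ± 0.666 FPKM in control (SD, n = 3 each; log2 fold change 1.56, adjusted p 0.00688 by limma). Tjp3, a scaffold of the same junction, rose to 5.86 ± 0.358 FPKM in cadmium, against 2.02 ± 0.682 FPKM in control (1.21, adjusted p 0.00891). The junction protein gene Cgn and the E-cadherin gene Cdh1 also rose, by 0.75 and 0.71 on the log2(FPKM + 1) scale, with adjusted p of 0.0141 and 0.0182. Without cadmium replicate 3 these were 0.0672 for Cgn and 0.0792 for Cdh1, and without cadmium replicate 1 the call of Cdh1 was also lost, at 0.0578. With the block both calls ended, at 0.0516 for Cgn and 0.0681 for Cdh1. Cldn1 and Tjp3 stayed called with each library left out in turn. With the block 3 of the 15 were called, and the read fit called 4 higher with or without it.

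Among 10 partners of the filaments (desmosome, plakin, lamin and other intermediate filament genes), 2 were called higher and 0 lower in the FPKM fit (3 higher and 1 lower at an unadjusted p of 0.05). Vim, the vimentin gene of mesenchymal cells, rose to 3.72 ± 0.328 FPKM in cadmium, against 1.52 ± 0.201 FPKM in control (SD, n = 3 each; log2 fold change 0.91, adjusted p 0.00688 by limma), and Lmnb1 was the other. Vim stayed called with each library left out in turn, and Lmnb1 in 1 of those 6 fits. With the block the adjusted p of Lmnb1 was 0.0778. Of 12 partners in the read fit, Vim was called higher and Ppl, named after its values were seen, was called lower. Vim also belongs to the stellate cell markers, of which 9 of 10 were called higher in the FPKM fit, or 4 of 10 with the block, and 6 of 12 in the read fit, or 4 of 12 with the block. Those markers had summed levels of 41.7 to 46.6 FPKM in cadmium and 18.0 to 26.8 FPKM in control. Of 10 genes of keratin aggregates and keratin stress, Krt18 alone was called higher and 0 were called lower in the FPKM fit (3 higher and 2 lower at an unadjusted p of 0.05). The list holds Krt18 itself, so its count is no independent evidence.

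**Figure D5:**
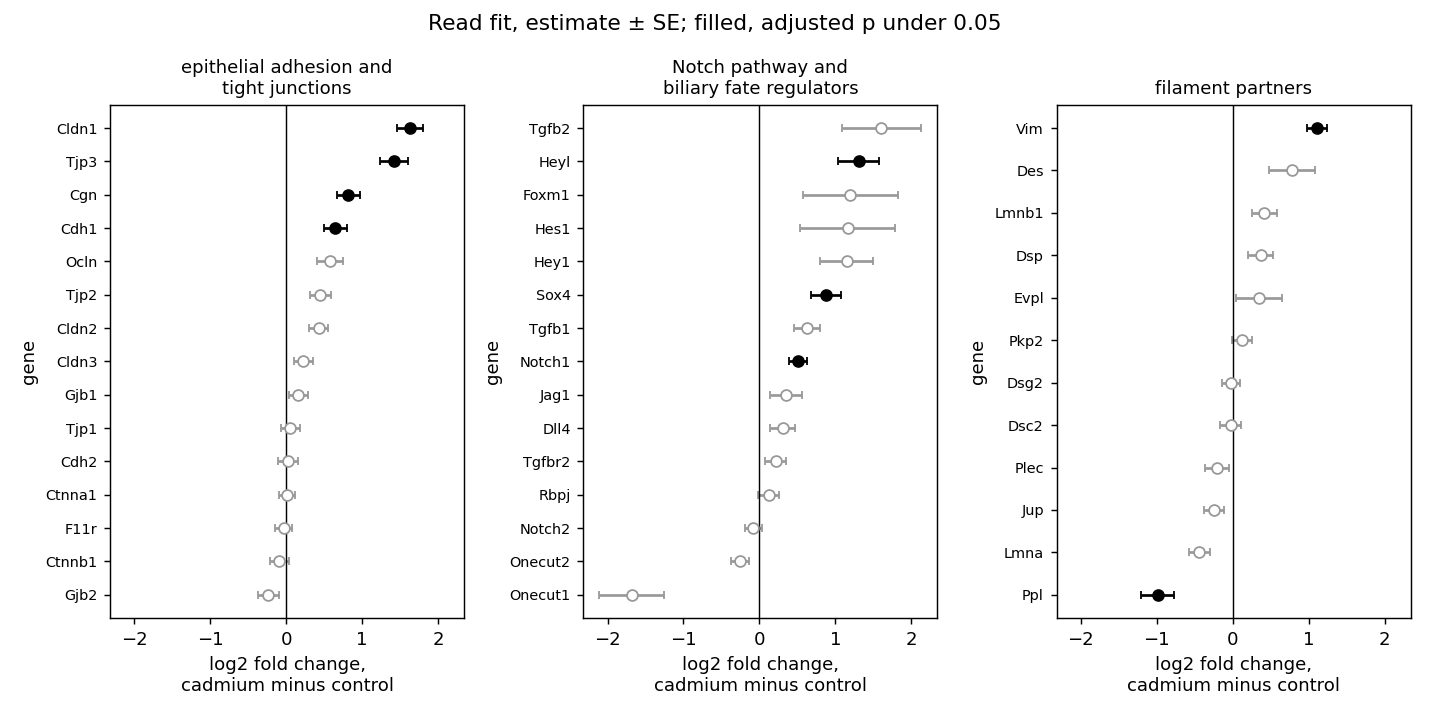
Log2 fold change of cadmium minus control (horizontal axis) with its SE in the read fit, for genes of epithelial junctions, of the Notch pathway and biliary fate, and of filament partners, with filled points for an adjusted p under 0.05. Cldn1, Tjp3, Cgn and Cdh1 are the filled points among the 15 junction genes, and the points of the other panels lie on both sides of 0.

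Receptors of osteopontin carry its signal into cells. Of 6 in the FPKM fit 3 were called higher and 0 lower (4 higher and 0 lower at an unadjusted p of 0.05). Cd44, which binds osteopontin and hyaluronan, rose to 1.44 ± 0.205 FPKM in cadmium, against 0.530 ± 0.102 FPKM in control (SD, n = 3 each; log2 fold change 0.67, adjusted p 0.0114 by limma). Its control libraries all lay under 1 FPKM, so Cd44 passed the filter of that fit only through the cadmium libraries. The read fit, filtered on the mean of all libraries, also called Cd44 higher. Itgb5, an integrin chain, rose to 18.8 ± 0.396 FPKM in cadmium, against 11.6 ± 0.591 FPKM in control (0.65, adjusted p 0.0117). Unlike those of Spp1, the groups of both receptors did not overlap, with cadmium replicate 2 at 1.48 FPKM for Cd44 and 18.5 FPKM for Itgb5. Both genes were named for their small p in this list, so that separation is not independent of the choice. The FPKM groups of 32% of the 18411 genes of the read fit did not overlap either. Both calls were lost without cadmium replicate 3, at 0.0561 for Cd44 and 0.0665 for Itgb5.

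Markers of other cells that make Spp1 or Sox9 were set beside these values. Of 10 genes of lipid-associated macrophages 5 were called higher in the read fit, with summed levels of 78.3 to 96.0 FPKM in cadmium and 55.3 to 63.5 FPKM in control. Cd9 of that list, a tetraspanin gene, rose to 5.24 ± 0.802 FPKM in cadmium, against 2.42 ± 0.311 FPKM in control (SD, n = 3 each; adjusted p 0.0114 in the FPKM fit by limma, and 0.0510 without cadmium replicate 3). Of 12 general macrophage markers 4 were called higher and 2 lower in the read fit, or 2 and 2 with the block, with summed levels of 93.0 to 104 FPKM in cadmium and 46.3 to 75.8 FPKM in control. None of these lists had a marker at 0 reads in all libraries. The part of these cells in the Spp1 and Sox9 values was not tested.

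By Pearson correlation of the deposited log2 values over the 6 libraries, the genes most like Krt18 among 8928 compared were Lipa at 0.995 and Lrrfip1 at 0.990. For Krt23, among 8929 compared, they were Hsdl2 at 0.997 and Gnmt at 0.996, for Sox9 Sept10 at 0.998 and Epc2 at 0.994, and for Spp1 Tnks at 0.982 and Cda at 0.979. The libraries fall into groups of 3, and the highest of so many values is high by selection, so these values are a description of pattern only.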

How the data were processed

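The deposited FPKM values and log2 values of the authors cover the same 6 input libraries, 3 cadmium and 3 control. The submitters' processing notes list mm10, DESeq2, STAR 2.7.1a, cutadapt 1.1.8, MACS2 2.1.1 and SAMtools 1.3.1, and state neither role nor order. Not given in the sources used here are the read counter, its strand setting and the test behind the authors' deposited p-values and FDR. Undoing log2 and subtracting 1 gave whole multiples of 1 step per library in the second table: 100% of values up to 3000 reads were whole to within 0.05 of a read, as is the pattern of read counts over a size factor. These recovered reads total 42115960, 68587128 and 65662619 in cadmium replicates 1 to 3, and 59095817, 50117621 and 42476574 in control replicates 1 to 3. The 10 genes with the most reads held 33.3% to 44.6% of them.

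With limma 3.58.1 in R 4.3.3, cadmium was compared with control, two-sided, in an FPKM fit (log2(FPKM + 1), variance trend, robust moderation, at least 1 FPKM in at least 3 libraries) and in a read fit (voom on recovered reads, library sizes from the size factors, mean of at least 10 reads). Fold changes on the log2(FPKM + 1) scale understate those of low genes. A gene can pass the FPKM filter through the libraries of 1 group alone. The filter of the read fit is on the mean of all 6 libraries. The Benjamini-Hochberg adjustment ran over all genes of a fit. No count package was run, since the table holds log2 values. Both fits were tested on simulated data. Only the read fit had a set limit to meet there, and the simulated data held no batch. The labels give the replicate number as the batch, which pairs the libraries. Deviations from group means correlated at -0.21, -0.23 and -0.021 between libraries of 1 batch and at -0.10 to 0.28 between others.

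The 8 genes and all lists were chosen with earlier results of these data known. Named were the 8 genes, up to 4 genes of each list with the smallest p, other keratins with a mean of at least 10 reads, and the 2 genes most like each of the 8. Genes named beyond that are said to be so. The alternatives tried were another pseudocount, other filters, quantile normalization, the deposited log2 values, total reads as library sizes, the batch as a block and leaving out each library. Identifiers of 34276 of 34352 genes matched GENCODE M21. No column was of unknown origin (0). Listed symbols absent from the log2 table were not analysed here. 1 gene of the lists is not reported here.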

Additional observations from a re-analysis of the deposited data

How the results depend on the processing

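Krt18 kept a positive estimate under each alternative run, and its call was lost in the FPKM fit with no filter (adjusted p 0.0902, limma), with the replicate block and without cadmium replicate 1, cadmium replicate 3 or control replicate 3. In the read fit the same 3 omissions gave adjusted p of 0.0711, 0.138 and 0.0875. The FPKM fit counted 31 genes higher and 6 lower with no filter, 347 and 298 after quantile normalization, 381 and 493 on the deposited log2 values, and 184 and 64 with the batch as a replicate block. Leaving out 1 library gave 78 to 539 higher and 23 to 242 lower, with the fewest calls without cadmium replicate 3. Of the 8 genes, only Krt8, Krt18 and Spp1, which passed the main filter of this fit, were counted under the alternatives. Of these, 0 were called higher with no filter and 0 with the block, and 0 to 2 with 1 library left out. The log2 fold change over all genes tested had a median of -0.0071 under quantile normalization, -0.061 with the deposited log2 values and 0.090 as reported. In the read fit total reads as library sizes moved that median to 0.21, against 0.018.

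In the read fit, total reads as library sizes gave 1407 genes higher and 216 lower, and the replicate block 296 higher and 327 lower. Leaving out 1 library gave 92 to 411 higher and 96 to 444 lower. Of the 8 genes the block called 0 higher and 1 lower, Krt23, and leaving out 1 library called 0 to 3 higher and 0 to 1 lower. The 3 higher were Krt18, Sox9 and Spp1, without cadmium replicate 2. The groups of 2 of the 8 genes did not overlap in the deposited log2 values. With 1 library left out of the FPKM, those of 6 did not overlap without cadmium replicate 2, and those of 1 or 2 without any other library. Groups separate more readily with fewer libraries, and the share over all genes was not computed for these omissions.

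Estimates that turned round were those of Epcam (-0.0018 without cadmium replicate 1), Krt7 (0.083 without cadmium replicate 2) and Krt8 (-0.12 without control replicate 1) in the read fit. With 1 library left out they ran from -0.0018 to 0.94 for Epcam, from -1.54 to 0.083 for Krt7 and from -0.12 to 0.25 for Krt8. None of these was called in any of these fits. Of the uncalled ratios to Krt18, that of Krt19 was -0.14 with 0.1 added to FPKM and -0.38 to 0.39 with 1 library left out. With 1 library left out that of Epcam was -0.60 to 0.27, that of Sox9 -0.016 to 0.67 and that of Spp1 -0.079 to 0.67. The cause was not tested. Of 17 list genes called in the FPKM fit and followed through all alternatives, 3 (Cldn1, Tjp3 and Vim) stayed called with each library left out in turn, and 14 lost the call without cadmium replicate 3. Krt7, Krt19, Krt23 and Epcam rest on 7 to 175 reads per library, and the part of read number in their missing calls was not tested.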
